A study of Mus musculus with 6 samples.

Results

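The Hox genes of the mouse lie in 4 clusters on separate chromosomes, and 38 of the protein-coding Hoxa, Hoxb, Hoxc and Hoxd genes of the GENCODE vM1 annotation on mm9 (NCBIM37) are described here, taken by name. A further 1 is not reported here, so each count of Hox genes below covers the 38 and not the whole family. They comprise 10 Hoxa genes on chromosome 6, 10 Hoxb genes on chromosome 11, 9 Hoxc genes on chromosome 15 and 9 Hoxd genes on chromosome 2, out of 22202 protein-coding genes on the 20 chromosomes that carried peaks. Chromatin accessibility was measured by ATAC-seq, in which the transposase Tn5 inserts adapters into open DNA, in NMuMG cells, an epithelial line of the normal mouse mammary gland. All cells first spent 6 h in medium without serum and, as the paper states, without insulin. They were then given either vehicle, the diluent without TGFβ1, for 2 h or 5 ng/ml of TGFβ1. The TGFβ1 was given for 2 h in one group and for 12 h in the other. There were 2 biological replicates per condition and 6 samples in all. The authors deposited 1 peak list per condition that joins both replicates, so the spread between replicates could not be computed and no difference between conditions was tested. A vehicle at 12 h was not analysed here. At 12 h the effect of TGFβ1 and that of longer culture without serum and insulin thus cannot be told apart. NMuMG is a single cultured line.

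Hox genes encode homeodomain transcription factors that give cells their position along the body axis of the embryo. Within a cluster they are transcribed in the same direction and are ordered as they are used along the axis, from anterior genes with low paralogue numbers to posterior genes with high ones. In adult tissues the clusters keep a pattern of active and silent genes that Polycomb proteins hold closed and Trithorax proteins hold open, with the insulator protein CTCF bound between blocks of genes. HOX proteins bind DNA together with the TALE homeodomain cofactors PBX, MEIS and PKNOX.

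A region below is a peak, or peaks less than 1000 bp apart merged, after intervals narrower than 150 bp were left out. The term gained is used for a region present in a TGFβ list with no overlapping vehicle region, and describes the lists rather than a measured rise of signal. A start site, the 5′ end of any protein-coding transcript of a gene, was counted as covered when a region lay over it. The Hox window of a cluster ran from 50 kb before its first to 50 kb past its last listed gene, 885 kb over the 4 clusters, of which 485 kb lay between the first and the last gene. Genome-wide, the vehicle list held 16765 regions, the 2 h list 32548, the 12 h list 33079 and their union 39435. The lists give no read counts, so the reads behind a single region are unknown here, and the read totals that the study states per library were not used. As a check of the cell type, the keratin genes Krt8 and Krt18 had a covered start site in all 3 lists. Those of the adhesion genes Cdh1 and Cldn4 were covered in TGFβ lists and not in vehicle (Cdh1 in both, Cldn4 at 12 h), and that of Epcam in no list. Of the 5 epithelial genes, 2 were thus covered in vehicle (95% Wilson interval 11.8 to 76.9%), 3 after 2 h and 4 after 12 h of TGFβ. The vehicle share is close to the 39.3% of all protein-coding genes, so it does not mark these genes out.

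The regions that carry most of what the lists hold within the clusters are shown first as DNA, read from the NCBIM37 sequence 5′ to 3′ on the strand of the neighbouring Hox gene. For Hoxa5 and Hoxa7, whose start sites were covered, the stretch just upstream of the start site is given. It is chr6:52154587-52154761 on the minus strand for Hoxa5 (175 bp, to the end of the region) and chr6:52171854-52172153 on the minus strand for Hoxa7 (300 bp). For the other 4 the region itself or its central 300 bp is given. These are chr6:52141878-52142177 (minus strand), next to the Hoxa4 start, chr11:96140183-96140363 (plus strand), upstream of Hoxb8, chr15:102817918-102818131 (plus strand), upstream of Hoxc8, and chr2:74553867-74554166 (plus strand), in an intron of Hoxd3. Capitals mark the 12 bases that differ at 1 position from the CTCF consensus, found in the Hoxa5 and Hoxb8 stretches. The other stretches carry no capitals.
Hoxa5 upstream: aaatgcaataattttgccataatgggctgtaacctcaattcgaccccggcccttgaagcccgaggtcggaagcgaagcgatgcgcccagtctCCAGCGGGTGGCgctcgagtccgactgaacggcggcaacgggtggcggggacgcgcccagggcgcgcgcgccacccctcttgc
Hoxa7 upstream: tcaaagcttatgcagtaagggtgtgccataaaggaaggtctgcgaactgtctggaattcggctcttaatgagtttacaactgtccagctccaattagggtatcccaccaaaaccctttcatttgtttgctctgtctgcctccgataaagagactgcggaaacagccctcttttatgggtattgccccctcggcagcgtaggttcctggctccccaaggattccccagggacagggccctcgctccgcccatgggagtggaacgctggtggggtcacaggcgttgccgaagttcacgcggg
Hoxa4 neighbour: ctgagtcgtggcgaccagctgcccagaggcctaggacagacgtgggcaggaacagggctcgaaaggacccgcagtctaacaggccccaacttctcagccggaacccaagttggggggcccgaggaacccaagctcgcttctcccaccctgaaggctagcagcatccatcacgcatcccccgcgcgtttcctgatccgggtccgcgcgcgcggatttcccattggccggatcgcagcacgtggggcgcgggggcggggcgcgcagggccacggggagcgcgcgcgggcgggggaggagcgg
Hoxb8 upstream: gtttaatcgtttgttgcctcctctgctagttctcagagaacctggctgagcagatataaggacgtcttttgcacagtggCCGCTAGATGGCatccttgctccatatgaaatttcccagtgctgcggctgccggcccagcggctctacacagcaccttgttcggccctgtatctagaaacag
Hoxc8 upstream: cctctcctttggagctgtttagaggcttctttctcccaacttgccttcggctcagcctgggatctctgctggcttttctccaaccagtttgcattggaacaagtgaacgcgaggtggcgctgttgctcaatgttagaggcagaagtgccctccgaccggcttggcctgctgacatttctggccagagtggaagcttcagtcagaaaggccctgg
Hoxd3 intron: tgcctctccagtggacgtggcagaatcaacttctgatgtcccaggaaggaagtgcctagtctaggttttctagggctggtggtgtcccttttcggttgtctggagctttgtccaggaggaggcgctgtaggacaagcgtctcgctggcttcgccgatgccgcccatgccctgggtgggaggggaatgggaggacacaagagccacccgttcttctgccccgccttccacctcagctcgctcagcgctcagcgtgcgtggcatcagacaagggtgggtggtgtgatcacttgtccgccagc
The Hoxa4 stretch was the richest in G and C of the 6, at 70.3%, with 33 CpG dinucleotides in 300 bp, against 65.1% and 21 CpG in the 175 bp upstream of Hoxa5 and 54.7% and 13 CpG upstream of Hoxa7. The Hoxb8 and Hoxc8 stretches had 52.5% and 55.1% G and C, with 7 and 6 CpG.

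Nearly all of the 38 Hox genes had no start site inside a region of the lists. In vehicle, 0 of 38 Hox genes had a covered start site, while 39.3% of all protein-coding genes did. The 0 of 38 allows a share of up to 9.18% (95% Wilson interval, counting error only). Such intervals treat the neighbouring genes of a cluster as independent. At 2 h of TGFβ 2 of 38 were covered (5.26%, 1.46 to 17.3%), against 44.9% of all genes. At 12 h 2 of 38 were again covered, against 45.0% of all genes. The genes were Hoxa5 and Hoxa7 at both times, so 2 of 38 were covered in both TGFβ lists and not in vehicle, beside 4.89% of all genes, a share close to this background. In any of the lists 2 of 38 were covered, against 46.3% of all genes, and 36 Hox genes were covered in none. Both covered genes are central Hox genes, of the paralogue groups that pattern the cervical and thoracic trunk. By position along the axis, 2 of 15 central genes (groups 4 to 8) were covered after TGFβ, 0 of 7 anterior genes (groups 1 to 3, up to 35.4%) and 0 of 16 posterior genes (groups 9 to 13, up to 19.4%). These intervals overlap, and the classes were not tested against each other. The classes hold the 38 genes alone, and the further Hox gene not reported here is in none of them. A region of all 3 lists lay over exons of a gene not reported here, so these counts do not describe every Hox gene of a class.

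**Figure D1:**
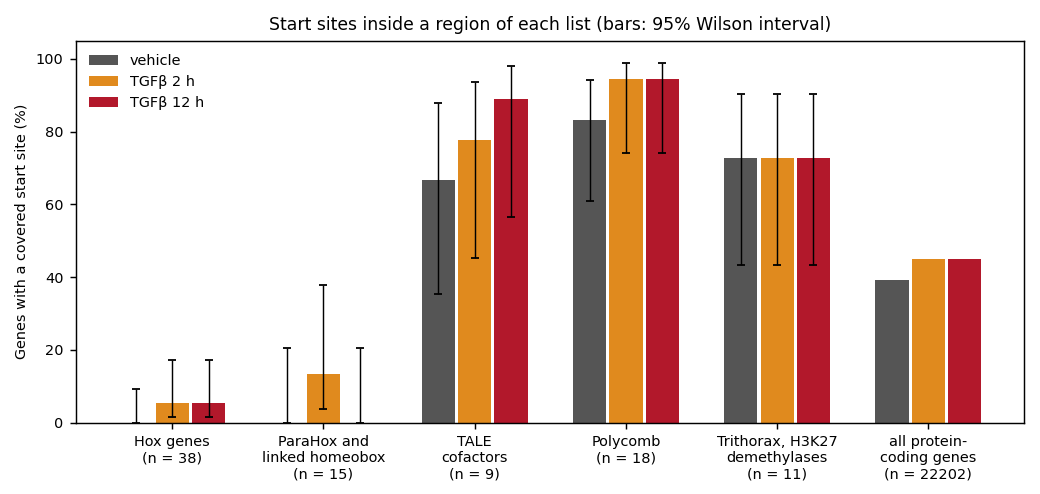
Percent of genes with a start site inside a region of the vehicle (grey), TGFβ 2 h (orange) and TGFβ 12 h (red) lists, for the Hox genes, 4 lists of genes related to them and all protein-coding genes; black bars are 95% Wilson intervals of the lists. The Hox bars stand at 0, 5.26 and 5.26%, below the 39.3, 44.9 and 45.0% of all genes.

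The vehicle list had 3 regions in the Hox windows, the 2 h list 8 and the 12 h list 10. Merged over the lists they made 12 regions, 8 inside the clusters and 4 in the flanks. The Hoxa window held 6 of them, the Hoxb window 4, and the Hoxc and Hoxd windows 1 each. Per megabase the windows held 3.39, 9.04 and 11.3 regions in the vehicle, 2 h and 12 h lists, against 6.56, 12.7 and 12.9 over the genome. Between the first and the last listed gene of the clusters the density was 2.06 per megabase in vehicle, 10.3 at 2 h and 12.4 at 12 h. In the flanks it was 5.00, 7.50 and 10.0. A flank region of all 3 lists, beyond Hoxa2, lay over exons of a gene not reported here. Were that gene listed, the region would count as inside, so this split depends on the genes listed. The covered length was 1092, 3021 and 4452 bp, or 0.123, 0.341 and 0.503% of the windows, where 0.427, 0.873 and 0.912% of the genome was covered. The number of regions per megabase was thus below that of the genome in each list, with the smallest shortfall at 12 h. Covered length was also below that of the genome in each list. The windows held 45 protein-coding genes, and these densities were not adjusted for the number of genes. Of the 12 regions, 4 were gained in both TGFβ lists (33.3%, 13.8 to 60.9%), beside 28.5% of all regions of the union. This count fell to 0 with the TGFβ lists shortened to their widest intervals, about the length of the vehicle list, and also with intervals at least as wide as the median of their list. A further 3 were present at 12 h alone and 2 at 2 h alone, while 2 were in all 3 lists (16.7%, 4.70 to 44.8%), beside 38.4% over the genome. The last was in vehicle and at 12 h and not at 2 h, a pattern of 0.388% of the union.

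**Figure D2:**
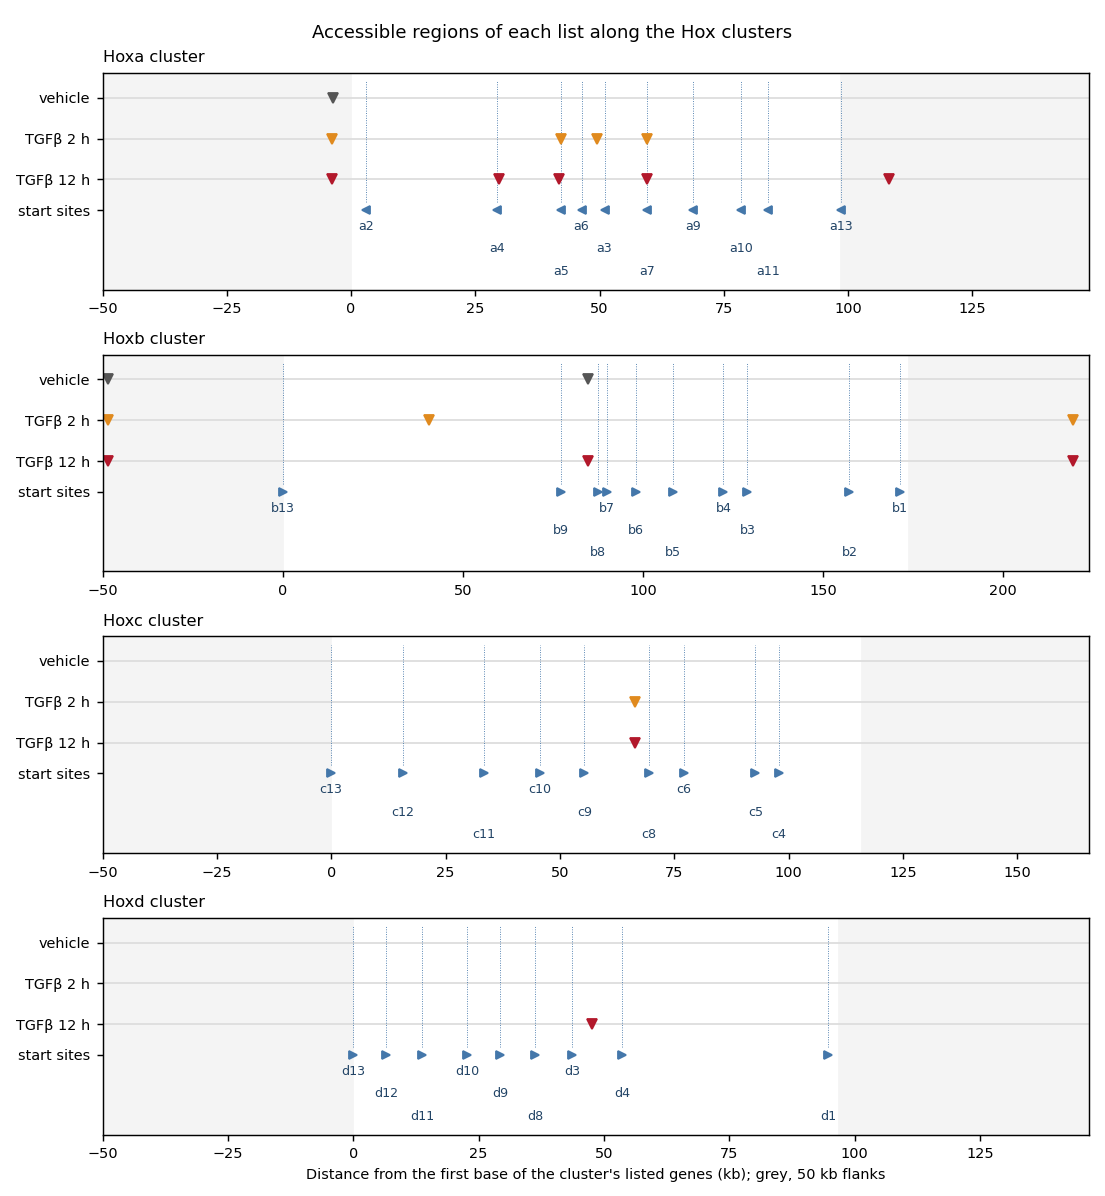
Regions of each list (triangles at the region's centre; vehicle grey, TGFβ 2 h orange, TGFβ 12 h red) along the Hox windows, against the distance in kb from the first base of the listed genes; blue arrowheads mark the outermost start site and direction of each Hox gene, and grey shading the 50 kb flanks. A single vehicle region lies between the first and the last listed gene of a cluster, in Hoxb, and the Hoxa cluster gains regions around Hoxa4, Hoxa5 and Hoxa7.

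Hoxa5, which acts in lung and mammary epithelium and in the patterning of the cervical skeleton, had the widest region of all Hox windows. No vehicle region lay within 45.6 kb of its start site at base 52154586 of chromosome 6. At 2 h a region of 346 bp lay over it (52154416 to 52154761), and at 12 h one of 1118 bp (52153643 to 52154760). The upstream edges of both thus lay within 1 bp of each other, and the 772 bp of added width lay downstream, over the untranslated and coding first part of the gene. Hoxa5 also had the highest observed over expected CpG ratio of the 38 genes, 0.99 in the 1000 bp around its start. Hoxa7, another regulator of trunk identity, had no vehicle region within 58.5 kb of a start site. Its region spanned 263 bp at 2 h (52171700 to 52171962) and 541 bp at 12 h (52171706 to 52172246), over the start at base 52171853 and the untranslated first exon. Here the width was added upstream, where the edge moved from 52171962 to 52172246. Both regions were thus wider at 12 h than at 2 h, on opposite sides of the start site, and widths are not read signal.

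Around these genes, the Hoxa cluster held further regions at 1 time only. At 12 h a region of 368 bp (52141844 to 52142211) ended 92 bp upstream of the Hoxa4 start, within a Hoxa3 intron and the lincRNA 2700086A05Rik. Hoxa4, a neighbour with a role in the vertebral column, had its nearest region 32.7 kb away in vehicle and 12.7 kb away at 2 h. At 2 h alone a region of 202 bp (52161641 to 52161842) lay in a Hoxa3 intron, 1224 bp from the nearest Hoxa3 start. Hoxa3, which is needed for thymus and parathyroid development, had distances of 13.6 kb in vehicle, 1.22 kb at 2 h and 7.99 kb at 12 h. Hoxa6, between Hoxa5 and Hoxa7, had no covered start site, and its nearest region lay 49.7 kb away in vehicle and 2.92 and 3.96 kb away after 2 h and 12 h. The region nearest to Hoxa2, which patterns the hindbrain and branchial arches, lay in the flank, 6.40 kb away, and was present in all 3 lists at 723, 945 and 958 bp with a vehicle score of 953. It was the one region of the Hoxa window in vehicle, and it lay over exons of a gene not reported here, so the count of 0 covered start sites in vehicle holds for the 38 genes alone.

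The posterior Hoxa genes lay in a stretch of 48.3 kb that held no region in any list. It holds Hoxa9, Hoxa10, Hoxa11 and Hoxa13, of which Hoxa10 and Hoxa11 act in the uterus and Hoxa13 in the limb tips and the genital tract. The distance of Hoxa9 fell from 67.2 kb in vehicle to 4.19 kb at 2 h and 3.90 kb at 12 h, since the region over Hoxa7 is its neighbour. Those of Hoxa10 were 75939, 12976 and 12692 bp, and those of Hoxa11 87.2, 24.3 and 24.0 kb. Hoxa13 had 102, 38.8 and 9.70 kb, the last to a region of 186 bp in the flank (52220569 to 52220754) that was present at 12 h alone.

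The Hoxb cluster was the only one with a vehicle region between its first and last listed gene. This region (96140183 to 96140363 of chromosome 11), 2856 bp upstream of Hoxb8, measured 174 bp in vehicle and 181 bp at 12 h and was absent at 2 h. Its vehicle score was 579, low in a list whose scores ran from 540 to 1000 with a median of 988, as 5.06% of vehicle intervals scored 579 or less. Whether the 2 h signal lay just under the threshold of the authors was not tested. Hoxb8, known for its part in blood cell growth and grooming behaviour, was the nearest of the 38 genes to a region in vehicle, at 2.86 kb. Its distances were 46.8 kb at 2 h and 2.86 kb at 12 h. Its neighbours followed it, with 5.21, 49.1 and 5.21 kb for Hoxb7 and 7.35, 36.3 and 7.35 kb for Hoxb9, a gene with a role in mammary development. A second region inside the cluster (96096147 to 96096464, 318 bp) was present at 2 h alone, 36.3 kb from Hoxb9 in the long space before Hoxb13.

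The 8 genes from Hoxb1 to Hoxb8 lay in 135 kb with no region in any list. In the same order of lists Hoxb6 had distances of 13.4, 57.3 and 13.4 kb, Hoxb5 23.5, 67.4 and 23.5 kb, and Hoxb4, a factor of blood stem cells, 37.6, 81.5 and 37.6 kb. Hoxb3 had 44.3, 69.8 and 44.3 kb. In each of these genes the 2 h distance was the longest, because the region upstream of Hoxb8 was missing from that list. Toward the anterior end a flank region gained in both TGFβ lists (380 and 393 bp, 96274887 to 96275279) lay 47.8 kb from Hoxb1. Hoxb1, which specifies a hindbrain segment, had 86.7, 47.8 and 47.8 kb, and Hoxb2 72.6, 62.0 and 61.9 kb. At the other end Hoxb13, a gene of the prostate and hindgut, had 48.4, 40.5 and 48.4 kb. Its flank region lay in an intron of Ttll6, a tubulin-modifying enzyme gene, in all 3 lists, at 195, 374 and 185 bp, with a vehicle score of 573.

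The Hoxc window held no region in vehicle, and its 9 genes lay in 401 kb without one. A single region was gained in both TGFβ lists (102817918 to 102818131 of chromosome 15), 193 bp wide at 2 h and 214 bp at 12 h. It lay 2922 bp upstream of Hoxc8, within the processed transcript Gm20398, and both lists shared its downstream edge. Hoxc8, which patterns the thoracic region, had its nearest region 173 kb away in vehicle and 2.92 kb away at both times of TGFβ. From there the distance grew in both directions. Toward the anterior end it was 10.6 kb for Hoxc6, 26.1 kb for Hoxc5 and 31.2 kb for Hoxc4 at both times. Toward the posterior end it was 10.5 kb for Hoxc9, 20.7 kb for Hoxc10, 33.1 kb for Hoxc11, 50.7 kb for Hoxc12 and 66.4 kb for Hoxc13, a gene of hair and nail, at 12 h. In vehicle these genes had 129 kb (Hoxc4) to 196 kb (Hoxc10), the longest of all Hox genes.

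The Hoxd window held no region in vehicle or at 2 h. At 12 h a region of 308 bp (74553863 to 74554170 of chromosome 2) lay in a Hoxd3 intron, 3877 bp from a Hoxd3 start, over a start of the lincRNA 1700109F18Rik. Hoxd3, which acts in the axial skeleton, had 80.0 kb in vehicle, 79.8 kb at 2 h and 3.88 kb at 12 h. At 12 h Hoxd4 had 5.87 kb, Hoxd8 10.7 kb and Hoxd9 18.1 kb. Toward the limb-patterning genes the distance grew to 24.7 kb for Hoxd10, 33.4 kb for Hoxd11, 40.9 kb for Hoxd12 and 47.5 kb for Hoxd13, and Hoxd1 at the anterior end had 46.9 kb. In vehicle the 9 genes had 62.7 kb (Hoxd1) to 121 kb (Hoxd8), and at 2 h 62.5 to 120 kb. The genes from Hoxd8 to Hoxd13 lay in 136 kb without a region in any list.

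**Figure D3:**
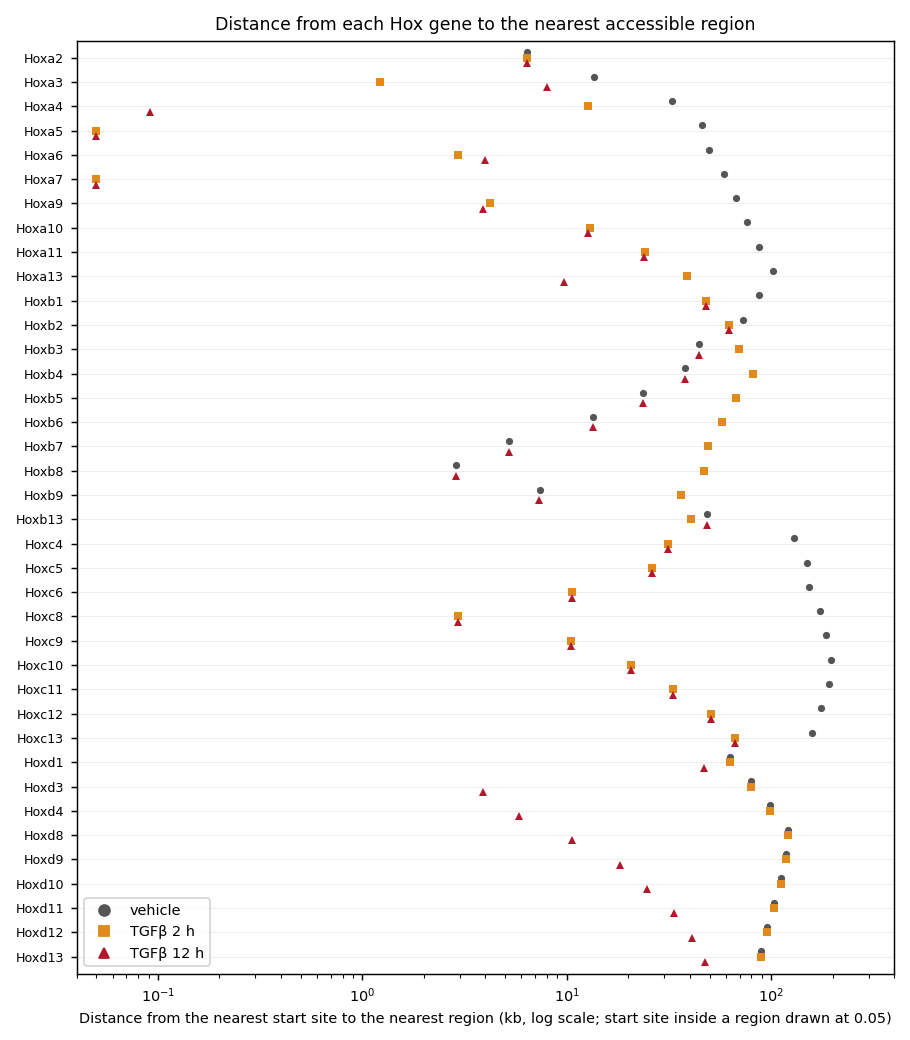
Distance in kb (log scale) from each Hox gene's nearest start site to the nearest region of the vehicle (grey circles), TGFβ 2 h (orange squares) and TGFβ 12 h (red triangles) lists; covered start sites are drawn at the left edge. Most vehicle points lie to the right of the 12 h points, with medians of 83.3 kb in vehicle and 15.8 kb at 12 h, while those of Hoxb3 to Hoxb9 nearly coincide.

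Over the 38 genes the median distance from a start site to the nearest region was 83.3 kb in vehicle, 43.6 kb at 2 h and 15.8 kb at 12 h, against 10.5, 2.77 and 2.74 kb over all protein-coding genes. In vehicle 34 of 38 Hox genes were farther than 10 kb from a region, at 2 h 31 and at 12 h 24, against 50.4, 41.3 and 41.2% of all genes. Farther than 50 kb were 25, 16 and 3 of 38, against 31.5, 23.1 and 22.3% of all genes. The 3 were Hoxb2, Hoxc12 and Hoxc13. By cluster, the median changed from 54.1 kb in vehicle to 5.30 kb at 2 h and 5.18 kb at 12 h for Hoxa, and from 173 to 26.1 kb at both times for Hoxc. For Hoxb it was 30.6 kb in vehicle, 53.2 kb at 2 h and 30.6 kb at 12 h, and for Hoxd 98.6, 98.4 and 24.7 kb. The clusters thus differed in which lists held a nearer region. For Hoxc and Hoxd the shorter distances rested on 1 region each, and distances were not recomputed with the wider intervals alone. Since genes of a cluster share their nearest region, these are 4 clusters and not 38 independent values.

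**Figure D4:**
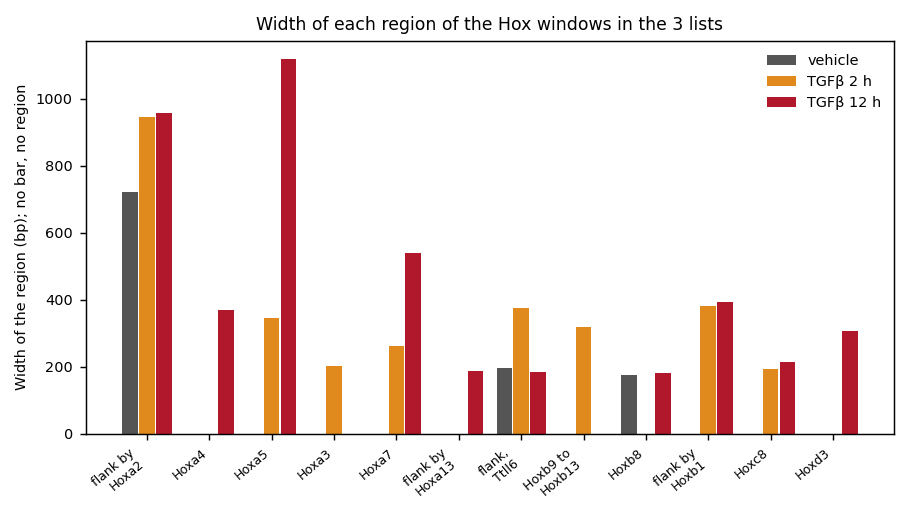
Width in bp of each of the 12 regions of the Hox windows in the vehicle (grey), TGFβ 2 h (orange) and TGFβ 12 h (red) lists, named by the nearest Hox gene or by the gene that holds them; no bar means no region in that list. The region over Hoxa5 is the widest, at 1118 bp at 12 h, followed by the flank region beyond Hoxa2 at 958 bp.

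The regions of the Hox windows were narrow. Median widths were 195, 332 and 338 bp for vehicle, 2 h and 12 h, against 569, 587 and 609 bp over the genome. Of the vehicle regions that matched a single TGFβ region, 2 of 2 were wider at 2 h, beside 82.7% over the genome, and 2 of 3 at 12 h, beside 83.6%. The exception was the region in Ttll6, 10 bp narrower at 12 h. With intervals at least as wide as the median of their list, Hoxa5 at 12 h was the only one of the 38 genes covered. Hoxa7 was then lost from both TGFβ lists.

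**Figure D5:**
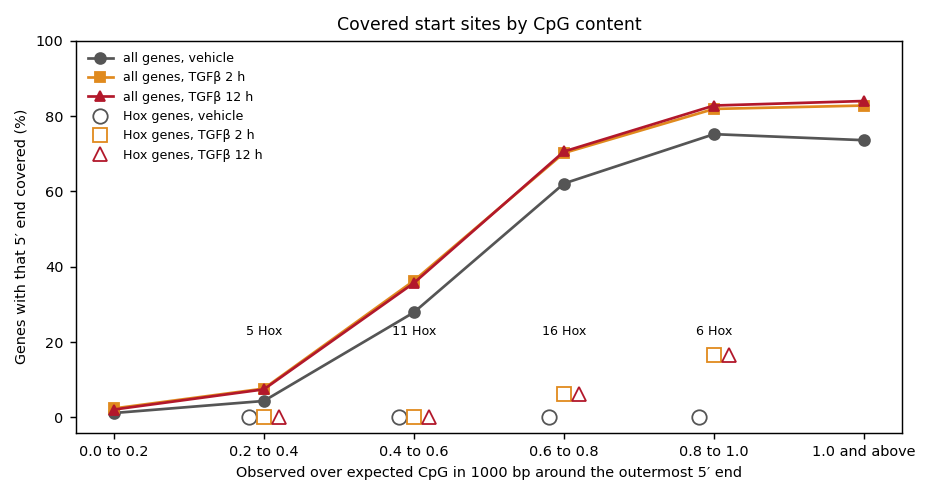
Percent of all protein-coding genes (filled symbols and lines) and of the Hox genes (open symbols; their number is given above them) whose outermost 5′ end was covered, against the observed over expected CpG ratio around it. The share of all genes rises with CpG to over 70% in each list, and the open symbols stay below 20%.

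CpG-rich promoters are accessible in most cell types, so the Hox genes were also set beside genes of like CpG content, a comparison chosen after the data were seen. In the 1000 bp around the outermost 5′ end the Hox genes had a median observed over expected CpG ratio of 0.64 (0.26 to 0.99), against 0.56 over all genes, and a median of 56.7% G and C, against 54.9%. With a ratio of at least 0.6 and at least 50% G and C, 20 of 38 Hox genes (52.6%) were CpG-rich, as were 44.8% of all genes. Counting that outermost 5′ end alone, 0 of the 20 were covered in vehicle and 2 at 2 h and at 12 h (10.0%). Of all CpG-rich genes 68.5, 76.1 and 76.7% were covered. In the highest class with Hox genes, a ratio of 0.8 to 1.0, Hoxa4, Hoxa5, Hoxa13, Hoxb9, Hoxc12 and Hoxd13 stood among 4203 genes. Of these 6, Hoxa5 was covered after TGFβ, and of the 4203 genes 75.2, 81.9 and 82.8% had that 5′ end covered in the 3 lists. The other 18 Hox genes were not CpG-rich, 16 of the 38 had a ratio under 0.6, and the part of CpG content in the low share was not tested.

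Motifs known from TGFβ signalling and from Hox clusters were searched on both strands in the 12 regions, and a match is a description of the letters. The AP-1 motif (TGACTCA or TGAGTCA) was in 0 of 12 regions, which allows up to 24.2%, where 43.2% of the 31909 regions of the same range of width (181 to 1119 bp) held it. The SMAD motif GTCTAGAC was in 0 of 12, beside 1.11%, and the HOX-PBX motif TGATTNAT in 0 of 12, beside 10.9%. The exact CTCF consensus was in 0 of 12, beside 4.50%. A setting with 1 mismatch allowed was chosen after the data were seen. With it the CTCF consensus was found in 5 of 12 (41.7%, 19.3 to 68.0%), beside 15.3% of regions in that range of width. These were the regions over Hoxa5 and Hoxa7, the region upstream of Hoxb8, the flank region beyond Hoxa13 and the region in Ttll6. AP-1 with 1 mismatch was in 6 of 12 (25.4 to 74.6%), beside 88.8%. The median G and C content of the 12 regions was 55.9% (50.9 to 71.2%), against 49.9% for all regions of the union. Within the range of width, regions were not matched further. The parts of width and of G and C content in these counts were not tested.

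The genes whose products work with Hox proteins or set their state gave other counts than the Hox genes. Of 9 TALE cofactor genes 6 had a covered start site in vehicle, 7 at 2 h and 8 at 12 h, among them Meis1 and Pknox1 in all lists. Meis3 was covered at 2 h and 12 h and Pbx2 at 12 h, while Pknox2 was covered in none. Of 18 Polycomb genes 15, 17 and 17 were covered, including Ezh2, the histone H3K27 methyltransferase, and its partners Eed and Suz12 in all lists, and Bmi1 in both TGFβ lists. Of 11 Trithorax and H3K27 demethylase genes 8 were covered in each list, among them Kmt2a, a methyltransferase that maintains Hox expression, and the demethylase gene Kdm6a. Those not covered were Kmt2d, Ash1l and Kdm6b. Of 15 ParaHox and Hox-linked homeobox genes, relatives of the Hox genes that are also used in embryonic patterning, 0 were covered in vehicle or at 12 h and 2 at 2 h. These were Pdx1, of the pancreas, and Cdx2, of the intestine. The homeobox relatives thus had counts like those of the Hox genes (0 to 13.3%), and the cofactor and regulator lists had shares above those of all genes, with no test made between lists.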

How the data were processed

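ATAC-seq libraries of 6 samples were processed by the authors with the ENCODE ATAC-seq pipeline, mapped to mm9, and called with MACS2 2.1.2; peaks reproducible between replicates (IDR) were kept. The deposited lists give peak positions in base pairs, and the vehicle list gives a peak score, deposited without a stated scale. In the TGFβ lists that column numbers the lines and was not used. Distinct intervals of at least 150 bp less than 1000 bp apart were merged per list and then over the 3 lists, and a shared region overlapped by at least 1 bp. Start sites came from GENCODE vM1. Shares have 95% Wilson intervals. Groups were taken from the sample labels. Scripts ran in Python 3.11.15, and the interval functions gave 0 errors in 4040 comparisons on simulated data. Each region of the Hox windows was described, and each Hox gene was given its values. Other gap limits, widths, flanks, overlaps and start site definitions were tried. The members and lists were chosen with earlier results of these data known. A further Hox gene and 1 cofactor gene are not reported by name here.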

Additional observations from a re-analysis of the deposited data

How the results depend on the processing

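Merging gaps under 500 or 2000 bp, dropping the width minimum, asking for 50% reciprocal overlap and taking the outermost 5′ end alone left each count of Hox regions and covered Hox genes that they bear on as given above. Counting a region within 1000 bp of a 5′ end added Hoxa4 at 12 h, for 3 genes. Of 74 recomputed counts, 50 stayed within 1.5 times the reported value and 24 did not. With intervals at least as wide as the median of their list, the Hox windows held 1 region in vehicle, 1 at 2 h and 2 at 12 h. In that setting 0 regions were gained in both TGFβ lists, 0 Hox genes were covered at 2 h and 1 at 12 h (Hoxa5), 0 were covered in both TGFβ lists alone, and 1 matched region was wider at each time. With the TGFβ lists shortened to their 18337 widest intervals, the counts were 1 region at 2 h, 2 at 12 h, 0 gained, 0 and 1 (Hoxa5) covered genes, 0 covered in both TGFβ lists alone, and 1 and 1 matched regions wider. Both settings keep fewer and wider intervals by construction. Without flanks there were 1, 5 and 6 regions, and with flanks of 100 kb 6 in vehicle. Motif counts rose from 0 to 5 and 9 for CTCF with up to 1 and 2 mismatches, and to 6 for AP-1 with 1. With 2 mismatches, 50.4% of regions in the same range of width held the CTCF consensus. These settings were chosen after seeing the data. Leaving out a replicate could not be run, since each list joins both. No paired analysis was possible because the lists hold no values per replicate. The lists give no reads per region, and an absent region is one that did not pass the authors' threshold, which is not the same as closed chromatin.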

Other observations

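The microRNA genes of the clusters, which target Hox transcripts among others, had no region over their annotated start. The start of the transcript that each microRNA is cut from was not examined. Mir196b, beside Hoxa9, had its nearest region 71165 bp away in vehicle, 8202 bp after 2 h and 7918 bp after 12 h. Mir196a-1 had 13711, 30014 and 13705 bp, and Mir10a 38.1, 82.0 and 38.1 kb, the same order of the 3 lists as the Hoxb genes beside them. Mir196a-2 had 190, 14.2 and 14.1 kb, Mir615 148, 27.2 and 27.2 kb, and Mir10b 99.6, 99.4 and 9.96 kb.

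The antisense gene Hoxa11as had 85.4, 22.4 and 22.1 kb, and Evx2, a homeobox gene beside Hoxd13, 80.0, 80.1 and 55.9 kb. The annotated start of the lincRNA gene 1700109F18Rik lay 110 kb away in vehicle, 109 kb at 2 h and 17 bp at 12 h from the nearest region, which holds the start of another of its transcripts.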
